A study of Mus musculus with 8 samples.

Results

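The 9 genes described here encode laminin chains: the alpha chains Lama1, Lama2, Lama3, Lama4 and Lama5, the beta chains Lamb1, Lamb2 and Lamb3, and the gamma chain Lamc1. They were chosen by family membership and matched by symbol to the Ensembl identifiers of the count tables, which hold 52636 genes. All 9 were found, and all 9 passed the filter on low counts, as did 17709 genes in all. Their transcripts were measured by RNA-seq in malignant mesothelioma (MM) of mice, a cancer that arises from the mesothelium covering lung and chest wall, in 6 triple knockout samples (Nf2, Cdkn2a and Bap1) and 2 double knockout samples (Nf2 and Cdkn2a). Deletion of Nf2, which encodes merlin, and of Cdkn2a, which encodes cell cycle inhibitors, is shared by all 8 samples, so the comparison concerns the added loss of Bap1, which encodes a histone H2A deubiquitinase. The title of the study describes conditional models of pleural tumours; strain, age and sex of the mice, the driver of Cre and whether each sample is a separate mouse do not appear in the labels used here. P-values therefore measure the spread between these samples, which may not be the spread between mice.

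Laminins are cross-shaped proteins of the basement membrane, the sheet of matrix under epithelia and mesothelia and around vessels and muscle fibres. Each molecule joins an alpha, a beta and a gamma chain along a coiled coil, and the alpha chain ends in globular domains that bind integrins and dystroglycan on cells. The chains mark tissues: the alpha chain of Lama1 is prominent in the early embryo, that of Lama2 around muscle fibres and Schwann cells, that of Lama4 in vessels and other mesenchymal tissue, and that of Lama5 in most mature epithelia. Lama3 and Lamb3 encode chains of the laminin that anchors stratified epithelia, and Lamc1 encodes the gamma chain of most other laminins.

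Total counts ran from 28326756 to 30232440 in the triple knockout samples and were 32082535 and 26847202 in double knockout samples 1 and 2. Double knockout sample 1 stood apart: its scaling factor by the trimmed mean of M-values (TMM) was 0.771 against 0.994 to 1.10 in the other 7, and mitochondrial genes took 4.04% of its counts against 1.17% to 2.33%. Over the log2 levels of all genes tested, the 2 double knockout samples correlated at Pearson r = 0.892. Double knockout sample 2 was closer to every triple knockout sample, at 0.903 to 0.930. Levels of Bap1 had a median of 58.4 CPM (counts scaled to library size) in the triple knockout samples, against 106 and 71.2 CPM in the double knockout samples, a log2 fold change of -0.60 ± 0.22 (SE) that was not called (edgeR adjusted p = 0.122). Nf2 and Cdkn2a, deleted in both groups, were not called either (-0.64 ± 0.22 and 0.87 ± 0.53 on the log2 scale; edgeR adjusted p = 0.103 and 0.306). Counts over a whole gene also cover exons outside a deletion, so this checks the labels weakly. The summed level of 10 mesothelial markers was 55.0 to 851 CPM in the triple knockout samples, against 289 and 1346 CPM in double knockout samples 1 and 2, and of the 9 tested none was called. They did not vary together: Wt1, Upk3b, Upk1b, Lrrn4, Krt19 and Gpm6a were highest in triple knockout sample 3 (Upk3b at 173 CPM, against at most 0.365 CPM in the other 7), whereas Krt8 and Krt18 were highest in double knockout sample 2, at 799 and 203 CPM. Msln (mesothelin) was counted in every sample, at 12.6 to 194 CPM in the triple knockout samples against 251 and 342 CPM in the double knockout samples. Calb2 was under 1 CPM in all 8. Of the 9 tested, 1 was lower (Msln) and 1 higher (Wt1) without overlap, where 24.1% of all genes tested showed no overlap. The protocols in the labels describe cells kept in medium, yet leukocyte, endothelial and skeletal muscle transcripts were counted in all 8 samples. In such bulk RNA, fewer cells of a type and less RNA per cell cannot be told apart.

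Promoter sequences of 5 of the members were found in RefSeq (GRCm38.p6), as windows of 300 bases from 250 before to 50 after an annotated start, each read 5′ to 3′ on the gene's strand. Those of Lama5 and Lamb3 are shown because these were the members called lower, and that of Lamb1 because it had the highest mean per transcript length in both groups. Capitals mark the GC box (GGGCGG), the TATA box (TATAAA), the TEAD element (GGAATG) and the AP-1 element (TGANTCA), searched on both strands.
Lama5, chr2:180225810-180226109, minus strand: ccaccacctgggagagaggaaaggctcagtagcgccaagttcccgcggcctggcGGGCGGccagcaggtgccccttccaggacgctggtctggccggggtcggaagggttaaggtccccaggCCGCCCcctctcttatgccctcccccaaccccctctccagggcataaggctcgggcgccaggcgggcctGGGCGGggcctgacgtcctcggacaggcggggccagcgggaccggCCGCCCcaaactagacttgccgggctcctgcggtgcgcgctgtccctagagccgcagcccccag
Lamb3, chr1:193301744-193302043, plus strand: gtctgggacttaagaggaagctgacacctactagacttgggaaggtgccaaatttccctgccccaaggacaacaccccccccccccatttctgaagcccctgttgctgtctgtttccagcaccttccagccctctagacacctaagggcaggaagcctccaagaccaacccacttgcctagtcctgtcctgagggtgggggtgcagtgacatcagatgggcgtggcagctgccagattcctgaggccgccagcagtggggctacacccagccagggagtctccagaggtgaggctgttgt
Lamb1, chr12:31265043-31265342, plus strand: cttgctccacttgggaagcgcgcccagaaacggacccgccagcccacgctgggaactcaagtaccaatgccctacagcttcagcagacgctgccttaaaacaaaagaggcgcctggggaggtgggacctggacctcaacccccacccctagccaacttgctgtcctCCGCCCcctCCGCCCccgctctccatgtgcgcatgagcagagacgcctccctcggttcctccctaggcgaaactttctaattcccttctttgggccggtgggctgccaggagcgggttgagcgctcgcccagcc
The Lama5 window held 4 GC boxes and 24 CpG sites, and 81.6% of all 32851 windows held as many CpG sites or fewer. The Lamb1 window held 2 GC boxes and 18 CpG sites. The Lamb3 window held none of the 4 marked elements and 2 CpG sites, with 23.3% of windows at as many or fewer, so the promoters of the members called lower differ in base composition. A GC box was found in 35.7% of all windows, a TATA box in 13.6%, the TEAD element in 14.7% and the AP-1 element in 7.81%. A second annotated start of Lamb3, at chr1:193301993-193302292, held 1 TEAD element and 5 CpG sites.

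Lama5 and Lamb3 fell in the triple knockout samples, and the other 7 laminin chains did not pass the test. Among all 17709 genes tested, 8.35% were called in either direction, 5.41% lower and 2.94% higher (edgeR's quasi-likelihood test, Benjamini-Hochberg adjusted p under 0.05). Over the 9 chains the log2 fold changes, triple over double, had a median of -0.28, beside 0.02 over all genes tested. The 6 triple and the 2 double knockout samples did not overlap for 6 of the 9 chains, 3 higher and 3 lower, where 24.1% of all genes tested showed no overlap.

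**Figure D1:**
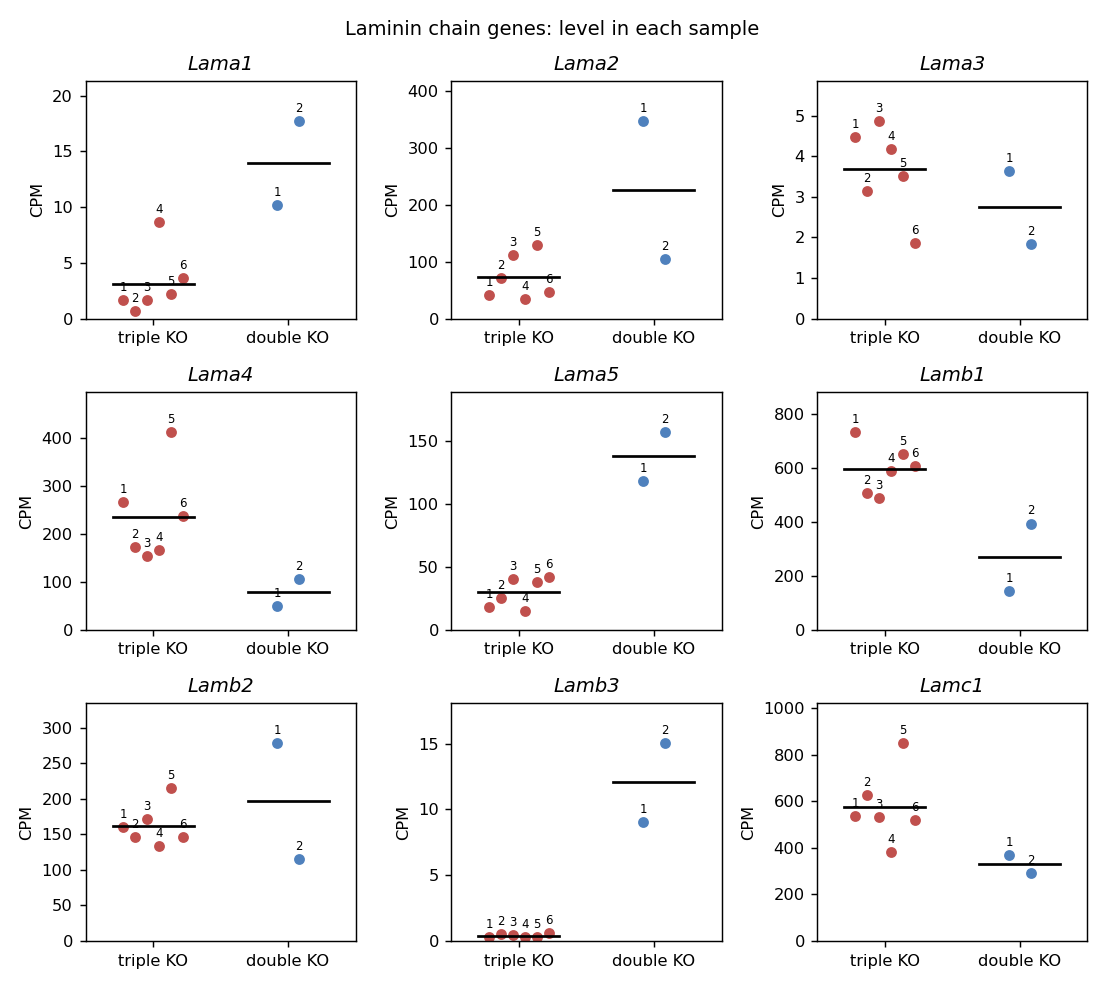
Level of each laminin chain gene in CPM (vertical axis, from 0), with the 6 triple knockout samples at left and the 2 double knockout samples at right, numbered by replicate; black bars are group means. Lama1, Lama5 and Lamb3 sit lower, and Lama4, Lamb1 and Lamc1 higher, in every triple knockout sample than in either double knockout sample.

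Among the alpha chains, Lama5 (ENSMUSG00000015647; chromosome 2, 180176373 to 180225859, GRCm38) ranged from 15.2 to 42.1 CPM over the triple knockout samples, with a median of 31.4 CPM, against 118 and 158 CPM in the double knockout samples. The highest triple knockout sample was thus below the lower double knockout sample. The log2 fold change was -2.21 ± 0.37 (SE), 4.64-fold lower, with an edgeR adjusted p of 0.0129. Without double knockout sample 1 the adjusted p was just over 0.05, at a log2 fold change of -2.42, and without any 1 of the other 7 samples it was under 0.05. The labels carry a code whose meaning they do not give. Within the samples coded SN930 (3 triple, 1 double) the log2 fold change was -1.88 (edgeR adjusted p = 0.0992), and within the others (3 triple, 1 double) it was -2.51 (edgeR adjusted p = 0.194).

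Lama4 (chromosome 10, 38965515 to 39110188) stood the other way, at 153 to 412 CPM with a median of 205 CPM in the triple knockout samples, against 49.8 and 106 CPM in the double knockout samples. The groups did not overlap, and triple knockout sample 5 was the highest. The log2 fold change of 1.59 ± 0.47 did not pass the edgeR test (adjusted p = 0.0717). It was 1.14 without double knockout sample 1 and 2.25 without double knockout sample 2, where the adjusted p was 0.0309.

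Lama2 (chromosome 10, 26980036 to 27619758), the muscle chain, stood at 34.4 to 130 CPM with a median of 58.9 CPM in the triple knockout samples, against 347 and 104 CPM in the double knockout samples. Double knockout sample 2 lay inside the range of the triple knockout samples, below samples 3 and 5, and the difference of -1.64 ± 0.56 on the log2 scale did not pass (edgeR adjusted p = 0.104). Without double knockout sample 1 it was -0.54, and without double knockout sample 2 it was -2.24 (adjusted p = 0.0286). The summed level of 10 skeletal muscle markers, such as Ckm and Myh3, ran from 111 to 11102 CPM with a median of 2852 CPM in the triple knockout samples, against 62996 and 3412 CPM in double knockout samples 1 and 2. Of these markers Myog, a regulator of muscle differentiation, and Myh3, an embryonic myosin, were called lower, at 0.199 to 17.8 CPM and 1.23 to 18.8 CPM in the triple knockout samples, against 510 and 377 CPM and 2448 and 636 CPM in the double knockout samples. None was called higher, 8 did not pass, and none was at 0 in any sample. Beside these counts, 5.41% of all genes tested were called lower and 2.94% higher. The 8 that did not pass overlapped between the groups. Their log2 fold changes were negative except for Pvalb (1.16 ± 2.09) and Myh4 (0.27 ± 1.99). Markers of Schwann cells, which also make this chain, summed to 80.5 to 343 CPM in the triple knockout samples against 102 and 103 CPM in the double knockout samples, and none was called. The part of either cell type in the level of Lama2 was not tested.

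Lama1 (chromosome 17, 67697265 to 67822645) was scarce, at 0.697 to 8.65 CPM with a median of 1.93 CPM in the triple knockout samples, against 10.2 and 17.8 CPM in the double knockout samples. Triple knockout sample 4, at 8.65 CPM, lay far above the other 5, which reached at most 3.63 CPM. The groups did not overlap. The log2 fold change was -2.18 ± 0.75 (edgeR adjusted p = 0.104), and -2.83 with adjusted p = 0.0342 without triple knockout sample 4. Without any 1 of the other 5 triple knockout samples it did not pass (edgeR adjusted p = 0.119 to 0.174). It was -2.53 without double knockout sample 1 and -1.71 without double knockout sample 2. Within the samples coded SN930 it was -1.06, and within the others -3.74. Lama3, on chromosome 18, ranged from 1.87 to 4.88 CPM in the triple knockout samples, with a median of 3.85 CPM, against 3.64 and 1.84 CPM in the double knockout samples. These groups overlapped (0.42 ± 0.45 on the log2 scale; edgeR adjusted p = 0.567).

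Among the beta chains, Lamb3 (ENSMUSG00000026639; chromosome 1, 193207699 to 193343878) showed the largest log2 fold change of the 9 genes in either direction. It stood at 0.265 to 0.634 CPM with a median of 0.375 CPM in the triple knockout samples, which is 8 to 19 reads in a library, against 9.07 and 15.1 CPM, or 224 and 417 reads, in the double knockout samples. No triple knockout sample came near either double knockout sample. The log2 fold change of -4.88 ± 0.39 corresponds to a level 29.4-fold lower (edgeR adjusted p = 0.00111), and it ran from -5.20 to -4.45 when any 1 of the 8 samples was left out, with every such adjusted p under 0.05. Within the samples coded SN930 it was -4.49 (edgeR adjusted p = 0.0353), and within the others -5.16 (edgeR adjusted p = 0.110). The summed level of 7 basal epithelial markers was 1.16 to 34.9 CPM with a median of 3.45 CPM in the triple knockout samples, against 26.0 and 4.62 CPM in double knockout samples 1 and 2. Krt5, Krt17 and Dsg3 were under 1 CPM in all 8 samples, and these and Krt15 did not pass the filter on low counts. The other 3 were tested and not called, and they differed in direction. Krt14 reached 30.8 CPM in triple knockout sample 3 and at most 0.823 CPM in the other triple knockout samples, against 0.567 and 0.722 CPM in the double knockout samples (3.09 ± 2.33 on the log2 scale; edgeR adjusted p = 0.409), and Col17a1 was at -0.13 ± 0.62 (edgeR adjusted p = 0.909). Trp63, a regulator of basal epithelium, was at 0.0332 to 2.44 CPM in the triple knockout samples against 24.2 and 3.32 CPM in the double knockout samples, without overlap (-3.40 ± 1.17; edgeR adjusted p = 0.105). The part of such cells in the level of Lamb3 was not tested.

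Lamb1 (chromosome 12, 31265234 to 31329644) ranged from 488 to 736 CPM in the triple knockout samples, with a median of 598 CPM, against 142 and 395 CPM in the double knockout samples. Each triple knockout sample exceeded both double knockout samples, which themselves lay far apart. The log2 fold change of 1.15 ± 0.38 was not called (edgeR adjusted p = 0.0926). It was 0.59 without double knockout sample 1 and 2.08, with adjusted p = 0.00369, without double knockout sample 2. Lamb2 (chromosome 9, 108479736 to 108490530), the beta chain of mature muscle and vessel laminins, stood at 134 to 215 CPM with a median of 154 CPM in the triple knockout samples, against 279 and 116 CPM in the double knockout samples. The triple knockout samples lay between the 2 double knockout samples, and the log2 fold change of -0.28 ± 0.31 (edgeR adjusted p = 0.577) turned to 0.48 without double knockout sample 1.

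Lamc1 (chromosome 1, 153218922 to 153332786) stood at 382 to 852 CPM with a median of 535 CPM in the triple knockout samples, against 369 and 290 CPM in the double knockout samples. The groups did not overlap, though triple knockout sample 4 and double knockout sample 1 differed little. The log2 fold change was 0.80 ± 0.31 (edgeR adjusted p = 0.132), from 0.66 to 0.98 when any 1 sample was left out. Beside Lama4, Lamb1 and Lamc1, the chains higher in every triple knockout sample, the summed level of 8 fibroblast markers did not overlap. It was 19539.6 to 45149 CPM with a median of 26765 CPM in the triple knockout samples, against 11537 and 14027 CPM in the double knockout samples. The collagens Col1a1, Col1a2 and Col3a1 made up most of that sum, and none of them was called. Of the 8, 1 was called higher (Pdgfra, 1.83 ± 0.41; edgeR adjusted p = 0.0322) and 7 did not pass, with Thy1 at -0.03 and Fap at -0.27. None was at 0. The summed level of 10 leukocyte markers overlapped, at 2006 to 3165 CPM in the triple knockout samples against 1015 and 2228 CPM in the double knockout samples. Of these, 2 were called higher, Cd68 (1.26 ± 0.27; edgeR adjusted p = 0.0279) and Itgam (1.89 ± 0.46; edgeR adjusted p = 0.0430), and 8 did not pass. The summed level of 10 endothelial markers overlapped, at 251 to 579 CPM in the triple knockout samples against 503 and 345 CPM in the double knockout samples. Of these, 1 was called lower, Tek (-1.83 ± 0.48, edgeR adjusted p = 0.0499), and 9 did not pass. Tek itself overlapped, at 9.91 to 22.7 CPM in the triple knockout samples against 89.7 and 20.8 CPM in double knockout samples 1 and 2. The 10 log2 fold changes had a median of 0.02. Beside the counts called in these marker lists, 8.35% of all genes tested were called, 2.94% higher and 5.41% lower. The part of any of these cell types in the level of the chains was not tested.

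**Figure D2:**
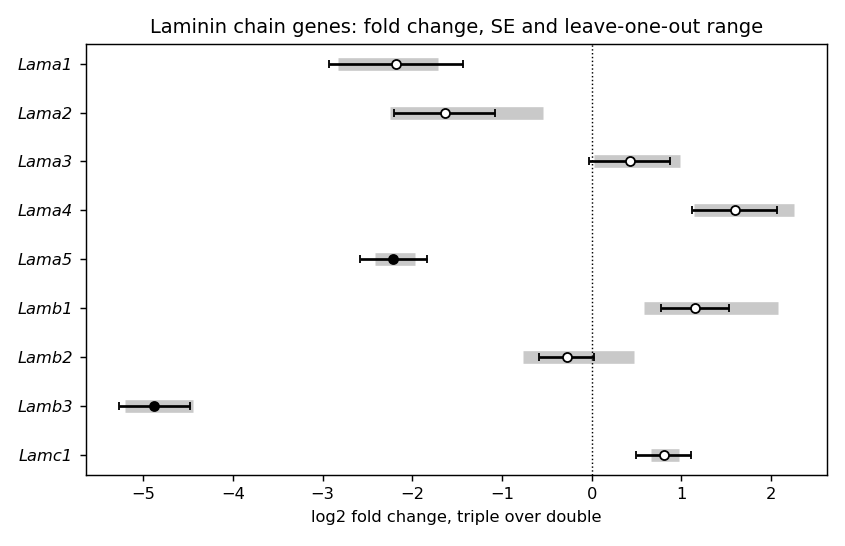
Log2 fold change of each laminin chain gene, triple over double knockout (horizontal axis), with its SE (bars) and the range of values when any 1 of the 8 samples is left out (grey); filled points were called at adjusted p under 0.05. Lamb3 at -4.88 and Lama5 at -2.21 are the filled points, and the grey band of Lamb2 crosses 0.

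To compare the chains with each other, CPM were divided by the length of the longest protein-coding transcript in kilobases, from 4867 bases for Lamb3 to 11388 for Lama5. On this scale Lamb1 had the highest mean in both groups, at 103 ± 15.9 CPM per kb in the triple knockout samples (SD, n = 6) and 46.4 ± 30.9 in the double knockout samples (SD, n = 2), followed by Lamc1 at 75.5 ± 20.5 CPM per kb in the triple knockout samples and 43.2 ± 7.35 in the double knockout samples. In double knockout sample 1 alone Lamb1, at 24.6 CPM per kb, stood below Lamb2 at 49.5, Lamc1 at 48.4 and Lama2 at 36.1. Per length of the union of all exons, chosen after seeing the data, Lamc1 had the highest mean, at 69.5 ± 18.9 CPM per kb in the triple knockout samples and 39.9 ± 6.77 in the double knockout samples, against 60.1 ± 9.29 and 27.1 ± 18.0 for Lamb1 in the same groups. With transcript lengths, the order in the triple knockout samples went on through Lama4, Lamb2, Lama2, Lama5, Lama3, Lama1 and Lamb3. In the double knockout samples it was Lamb2, Lama2, Lama4, Lama5, Lamb3, Lama1 and Lama3. The sample ranges of neighbours in these orders overlapped, except Lamb2 over Lama2 and Lama5 over Lama3 in the triple knockout samples, and Lama5 over Lamb3 and Lama1 over Lama3 in the double knockout samples. By its mean, Lamb3 was thus the rarest chain of the triple knockout samples, at 0.0835 ± 0.0293 CPM per kb, against 2.48 ± 0.87 CPM per kb in the double knockout samples. In triple knockout sample 2 Lama1, at 0.0731 CPM per kb, stood below Lamb3 at 0.104.

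**Figure D3:**
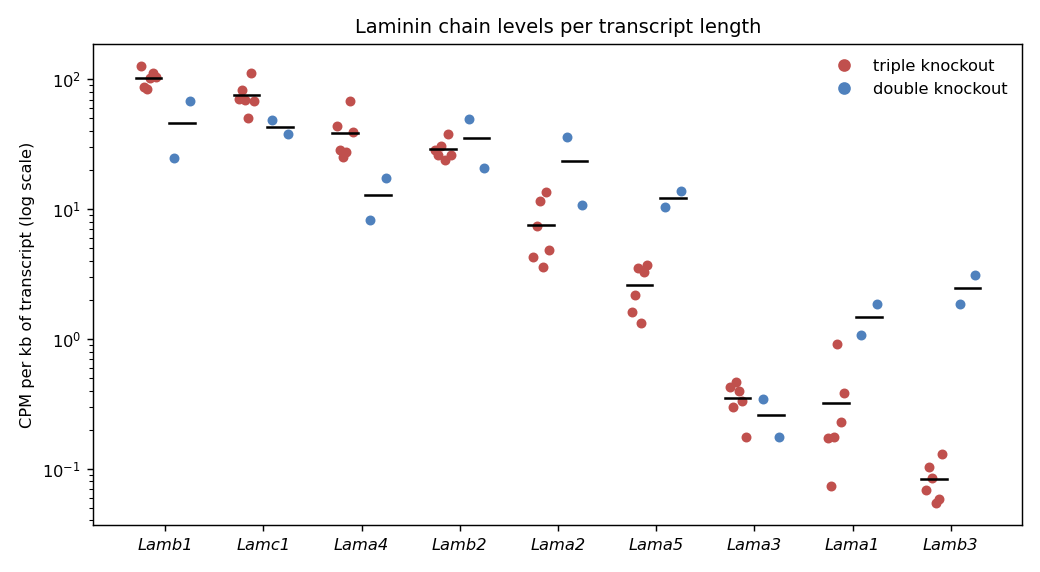
CPM per kilobase of transcript (vertical axis, log scale) for each laminin chain gene, with triple knockout samples left of double knockout samples; points are samples and black bars are means. Genes are in falling order of the triple knockout mean, from Lamb1 at 103 to Lamb3 at 0.0835 CPM per kb.

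The make-up of the alpha chains differed between the groups. As shares of the 5 alpha chains per length, Lama4 made up 61.6% to 87.2% in the triple knockout samples, with a median of 80.4%, against 14.7% and 39.5% in the double knockout samples. Lama5 made up 3.21% to 8.58% in the triple knockout samples, with a median of 4.84%, against 18.5% and 31.3% in the double knockout samples. For both chains the groups did not overlap, and the ratio of Lama4 to Lama5 was 7.18 to 27.2, with a median of 16.8, in the triple knockout samples, against 0.792 and 1.26 in the double knockout samples. Lama2 held 8.45% to 28.2% in the triple knockout samples, against 64.3% and 24.6% in double knockout samples 1 and 2, which thus differed from each other. Lama1 and Lama3 held at most 4.22% and 1.18% in any sample. Shares are a description of the members and were not tested.

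The beta chains did not part the groups in the same way. Lamb1 held 73.4% to 81.6% of the beta chains in the triple knockout samples, with a median of 78.5%, against 32.4% and 74.2% in double knockout samples 1 and 2. Double knockout sample 2 lay inside the range of the triple knockout samples for Lamb1, and double knockout sample 1 was the sole sample with more Lamb2 than Lamb1, at 65.2% Lamb2. Lamb3 held 0.0388% to 0.0992% in the triple knockout samples against 2.45% and 3.36% in the double knockout samples, with no overlap.

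The summed alpha chains per length overlapped, at 33.6 to 85.6 CPM per kb with a median of 44.7 in the triple knockout samples and 56.2 and 44.2 CPM per kb in the double knockout samples. The summed beta chains stood at 114 to 156 CPM per kb in the triple knockout samples, above 76.0 and 92.0 CPM per kb in the double knockout samples. Relative to Lamc1, the alpha chains summed to 0.469 to 0.766 in the triple knockout samples, with a median of 0.689, and to 1.16 in each double knockout sample. The beta chains summed to 1.35 to 2.51 times Lamc1 in the triple knockout samples and to 1.57 and 2.42 times in the double knockout samples, so this ratio overlapped.

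**Figure D4:**
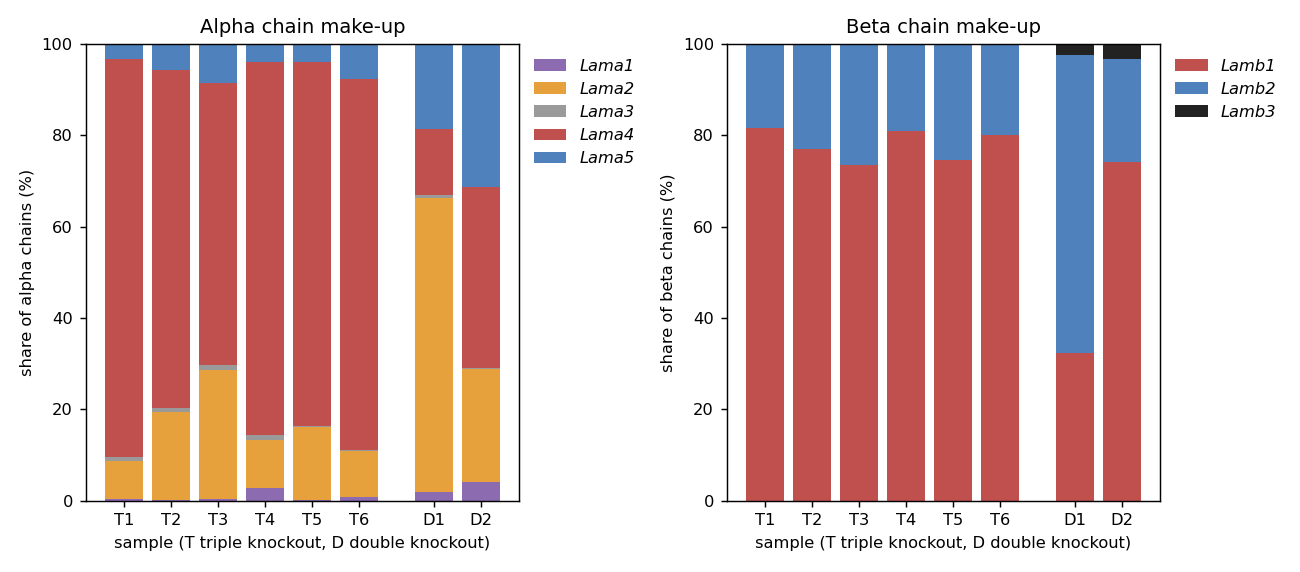
Share of each alpha chain (left) and beta chain (right) in percent of the chains of its class, from CPM per transcript length, for triple knockout samples T1 to T6 and double knockout samples D1 and D2. Lama4 takes 61.6% to 87.2% of every T bar, D1 is led by Lama2 at 64.3%, and Lamb2 exceeds Lamb1 in D1 alone.

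Among the laminin receptors, of 11 tested, 3 fell (Itga7, Dag1 and Sdc4), 0 rose and 8 did not pass. Their log2 fold changes had a median of -0.62. Among all genes tested, 5.41% were called lower and 2.94% higher. Itga7, the integrin alpha chain of muscle that binds laminin, stood at 13.2 to 54.1 CPM with a median of 22.3 CPM in the triple knockout samples, against 832 and 337 CPM in the double knockout samples, a log2 fold change of -4.37 ± 0.55 (edgeR adjusted p = 0.00457). Dag1, which encodes dystroglycan, stood at 137 to 277 CPM in the triple knockout samples against 979 and 356 CPM in the double knockout samples (-1.72 ± 0.36; edgeR adjusted p = 0.0264). Sdc4, a syndecan, stood at 54.9 to 116 CPM in the triple knockout samples against 249.7 and 123 CPM in the double knockout samples (-1.26 ± 0.31; edgeR adjusted p = 0.0426). Every triple knockout sample was below both double knockout samples for each of the 3 receptors. Of the 11 tested, 4 were lower and 1 higher without overlap, beside 11.4% and 12.8% of all genes tested. Without double knockout sample 1, whose skeletal muscle markers are given above, Itga7 was at -3.58 (adjusted p = 0.0398), whereas Dag1 was at -0.82 (adjusted p = 0.285) and Sdc4 at -0.67 (adjusted p = 0.432). Dag1 also lost its call without triple knockout sample 1 or 6 (adjusted p = 0.0596 and 0.0501), and Sdc4 without triple knockout sample 1, 2, 4, 5 or 6 (0.0718 to 0.0864).

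Other components of the basement membrane were called in both directions. Of 19 tested partners, 1 rose, 4 fell and 14 did not pass, and their log2 fold changes had a median of 0.34. Among all genes tested, 2.94% were called higher and 5.41% lower. All 5 called partners differed without overlap. Of the 19 tested, 4 were lower and 2 higher without overlap, where 24.1% of all genes tested showed no overlap. The nidogens, which link laminin to collagen IV, went in opposite directions: Nid1 stood at 872 to 1562 CPM in the triple knockout samples against 452 and 346 CPM in the double knockout samples (1.56 ± 0.31; edgeR adjusted p = 0.0225). Nid2 stood at 59.8 to 115 CPM in the triple knockout samples against 213 and 285 CPM in the double knockout samples (-1.58 ± 0.26; edgeR adjusted p = 0.0122). Frem1, an extracellular matrix protein of the embryonic basement membrane, stood at 0.631 to 1.74 CPM in the triple knockout samples against 11.7 and 5.45 CPM in the double knockout samples (-2.89 ± 0.45; edgeR adjusted p = 0.0097). Its relative Frem2 stood at 0.0332 to 1.08 CPM in the triple knockout samples against 24.3 and 2.09 CPM in the double knockout samples (-4.91 ± 0.97; edgeR adjusted p = 0.0226). Smoc1, a matrix protein named after its values were seen, stood at 1.30 to 7.57 CPM in the triple knockout samples against 31.5 and 23.5 CPM in the double knockout samples (-3.16 ± 0.63; edgeR adjusted p = 0.0239). Without double knockout sample 1 the adjusted p was 0.0817 for Nid1, 0.0843 for Frem1 and 0.384 for Frem2, whose log2 fold change was then -2.26. Smoc1 lost its call without double knockout sample 1 or triple knockout sample 1. Frem2 also lost its call without triple knockout sample 1 or 5 (adjusted p = 0.0530 and 0.0513). The collagen IV genes Col4a1 and Col4a2, and Hspg2 (perlecan), did not pass the test, at 0.74 ± 0.42, 0.45 ± 0.43 and 0.66 ± 0.30 on the log2 scale (named after their values were seen).

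Enzymes that build the laminin-binding sugar of dystroglycan were mostly not called. Of 13 tested, 1 fell, B4gat1, and 12 did not pass, and their log2 fold changes had a median of 0.04. That share is near the 8.35% called in either direction among all genes tested. B4gat1 stood at 22.6 to 34.3 CPM in the triple knockout samples, against 56.6 and 42.7 CPM in the double knockout samples (-0.82 ± 0.20; edgeR adjusted p = 0.0416), and it lost its call in 6 of the 8 fits without a sample, with adjusted p of 0.0622 to 0.281. Of 4 netrins tested, a family related to laminin chains, 3 did not pass, and the 4 log2 fold changes had a median of 0.19. Ntng1 rose, where 2.94% of all genes tested were called higher. It stood at 1.13 to 6.34 CPM in the triple knockout samples against 0.324 and 0.289 CPM in the double knockout samples (3.66 ± 0.76; edgeR adjusted p = 0.0263), and its adjusted p was 0.158 without double knockout sample 1.

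**Figure D5:**
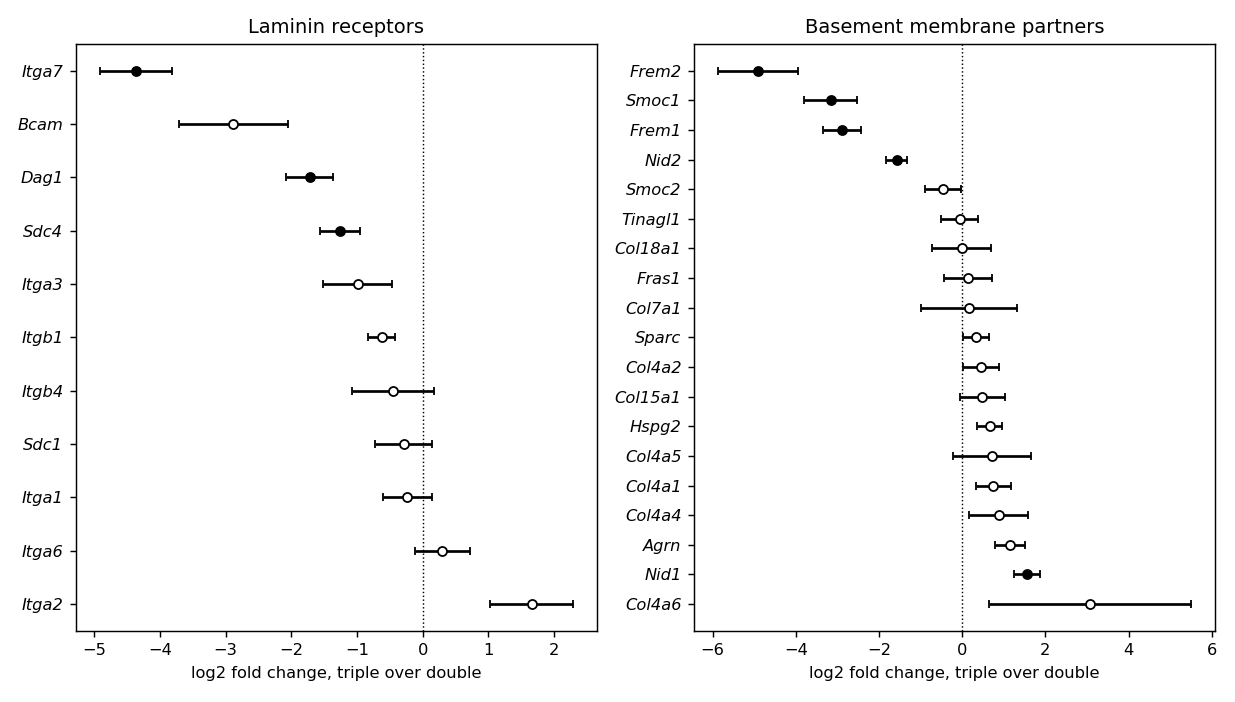
Log2 fold change, triple over double knockout (horizontal axis), of the tested laminin receptors (left) and basement membrane partners (right), with SE as bars; filled points were called at adjusted p under 0.05. All 3 filled receptors lie left of 0, from Itga7 at -4.37, and Nid1 at 1.56 is the sole filled partner right of 0.

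The genes whose log2 levels followed those of Lama5 most closely over the 8 samples, of 13385 compared, were Pgpep1 (Pearson r = 0.978), Tpcn1 (0.974) and Zbtb7c (0.973). Over the 6 triple knockout samples alone r was 0.934, 0.892 and 0.963. For Lamb3 they were Igsf21 (0.990), Epb41l5 (0.988) and Purb (0.988), with r of 0.805, 0.693 and 0.639 over the triple knockout samples. These values describe likeness over samples that fall into 2 groups, and share the libraries and their depth.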

How the data were processed

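The deposited tables, 1 for each of 8 samples, hold counts: whole numbers of reads per Ensembl gene made by the authors, beside the gene's coordinates, per the file headers. The submitters' processing notes name HTSeq, DESeq2, mm10 and GRCm38; aligner, strand setting and annotation release were not given in the sources used here. Starts, counted from 0 in the files, were moved by 1. Exon bases shared with other genes made up 3.86% of Lama2, 1.83% of Lama3 and 6.27% of Lamc3, and 0 of the other chains; without strand, reads there cannot be told apart. Symbols and transcript lengths came from GENCODE M21; Lama1 has other ends there than in the files.

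Groups came from the genotype label, and replicate numbers were given in accession order, so they pair no samples. All sample pairs differed by more than sampling noise (lowest median chi-square per gene 8.33). For this median, libraries were scaled by total counts without TMM factors. It was 8.33 to 19.1 between triple knockout samples and 60.0 between the 2 double knockout samples. Between double knockout sample 2 and the triple knockout samples it was 14.7 to 24.2. Between double knockout sample 1 and the triple knockout samples it was 59.7 to 76.6, and the TMM factor of 0.771 of that sample enters these values. The quasi-likelihood test of edgeR 4.0.16 in R 4.3.3, after filterByExpr and TMM scaling, set triple against double knockout without covariates; p-values were adjusted over 17709 genes, of which 520 were higher and 958 lower. SE came from the test statistic. CPM use TMM factors; log2 levels used a prior count of 2. The script was tested on simulated data.

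Alternatives were DESeq2 1.42.0, limma-voom (limma 3.58.1), RLE and upper-quartile scaling, no filter, 1 CPM in 2 samples, robust dispersion, the description code as a term or as a subset, leaving out each sample, and other lengths. The exon union length was added after seeing the data. Members and lists were chosen with earlier results of these data known. Named genes are the members, the 3 deleted genes, up to 4 called genes of smallest p per list, Lamc3, and the 3 genes most like each called member. Single marker genes of cell types, Smoc1, Col4a1, Col4a2 and Hspg2 were named after their values were seen. Some results are not reported here.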

Additional observations from a re-analysis of the deposited data

Results flagged for a closer look

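Triple knockout sample 4 stood apart from the other 5 triple knockout samples in Lama1, at 8.65 CPM and 2.70% of the alpha chains. Lamc3, a gamma chain outside the 9 genes, was at 16.7 CPM in triple knockout sample 3, against 0.127 to 0.797 CPM in the other triple knockout samples and 4.37 and 0.903 CPM in the double knockout samples. Triple knockout sample 3 was also the sample with Upk3b at 173 CPM and Wt1 at 33.2 CPM. In all, 28 values were checked within the 6 triple knockout samples for a sample far from its nearest neighbour, and 3 were found. The level and the share of Lama1 in triple knockout sample 4 rest on the same reads. The rule was set at about 1 in 20 groups by chance. The values checked are not independent, so the 3 cannot be read as an excess over that rate.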

How the results depend on the processing

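No paired analysis was possible because the labels give no pairing, and the replicate numbers were given in accession order. Of 162 values of the 9 chains' log2 fold changes under the alternatives, 146 kept their direction and side of the threshold, 9 passed it in addition, 4 lost it and 3 turned: Lama3 to -0.17 among samples with the description code SN930, and Lamb2 to 0.45 among those with other codes and 0.48 without double knockout sample 1 (-0.76 without double knockout sample 2). Lamc3, at 0.25, was at -1.47 with limma-voom, -1.77 with the code as a term, -3.36 within SN930, 1.79 without double knockout sample 1, -0.46 without double knockout sample 2 and -2.59 without triple knockout sample 3. Over all genes, 1478 were called, 3380 with DESeq2, 962 with the code as a term, 1 among other codes (2506 at an unadjusted p under 0.05) and 315 to 5579 without a sample. Of the 9 chains, 2 were called, 6 with DESeq2 (4 lower and 2 higher), 2 within SN930 (1 lower and 1 higher), 0 among other codes (4 at an unadjusted p under 0.05), and 1 to 5 without a sample, of which 1 to 3 lower and 0 to 2 higher. Called partners numbered 5, but 3 within SN930, 0 among other codes and 1 to 6 without a sample. Called receptors numbered 3, but 6 with DESeq2, 5 within SN930, 0 among other codes and 1 to 7 without a sample. Of the glycosylation enzymes 0 were called with limma-voom, upper-quartile factors, no filter, the code as a term and within either set of codes, and 0 to 3 without a sample. Of the netrins 0 were called with limma-voom or within either set of codes, and 0 to 1 without a sample. Each set of codes holds 1 double knockout sample, assumed to vary like the triple knockout samples, so code and sample cannot be told apart there.

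The difference in chain share, triple minus double, in percentage points, ran without a sample from -3.43 to -1.12 for Lama1, -48.9 to -9.16 for Lama2, 0.163 to 0.383 for Lama3, 38.0 to 62.9 for Lama4, -25.8 to -13.0 for Lama5, 3.73 to 45.6 for Lamb1, -43.2 to -0.434 for Lamb2 and -3.30 to -2.38 for Lamb3. From counts not divided by length it was -22.6 for Lama5 and -2.43 for Lamb3, and per exon union length -26.4 for Lama5, -2.90 for Lamb3 and 0.653 for Lama3, against -19.4, -2.84 and 0.273 as reported. By exon union length Lamc1 in place of Lamb1 had the highest mean level in both groups. In the double knockout samples Lama5, at 12.1 CPM per kb, then stood above Lama4 at 6.44, and Lamb2, at 32.5, above Lamb1 at 27.1. In the triple knockout samples Lamb2, at 26.7 CPM per kb, stood above Lama4 at 19.4. The length of Lama4 was then 12068 bases in place of 6046, so each ratio of Lama4 to Lama5 is lower by that measure. Lamb3, with 8 to 19 reads per triple knockout library, is the chain whose level depth limits most.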
